A study of Mus musculus with 9 samples.

Results

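A set of 10 genes that encode proteins of the tectorial membrane and of other extracellular matrices of the inner ear was followed: Tecta, Tectb, Otog, Otogl, Otoa, Ceacam16, Coch, Otos, Oc90 and Otol1. They were taken by symbol, with no threshold on a measured value, and each was found by gene identifier among the 51912 genes of the wild-type and heterozygous tables. None of the 10 (0) is among the 1137 genes listed for the homozygous Pou4f3(Δ/Δ) libraries, and their levels in homozygous mutants were not analysed here. Those tables list only a small part of the 51912 genes, so absence from them does not mean a level of 0.

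Expression was measured by RNA-seq in whole cochlear tissue of mice at postnatal day 3. The libraries compared came from Pou4f3(+/+) mice, called WT (n = 3), and from Pou4f3(Δ/+) mice, called HET (n = 3), described by the submitters as littermates. The Pou4f3 protein is a transcription factor of hair cells. For the Δ allele, the strain and the number of animals behind a library, no details were at hand. The groups follow the sample titles, because in every sample the genotype field names another genotype than the title does, and each direction below depends on that choice. Pou4f3 itself was at 25.5 ± 1.31 FPKM (SD, n = 3) in WT and 23.8 ± 1.94 FPKM in HET (n = 3), so its level does not tell these 2 groups apart. The libraries titled Pou4f3(Δ/Δ) read 5.92, 1.36 and 9.39 FPKM, below the 21.7 to 27.0 FPKM of the other 6, while the genotype field gives both mutant alleles to the libraries titled Pou4f3(+/+). FPKM is the number of sequenced fragments of a gene divided by its length and by the library's depth, so levels of different genes can be compared per length.

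The tectorial membrane is the gel that lies over the hair bundles of the cochlea. Non-sensory cells of the cochlear duct secrete it, and it is built of collagen fibrils in a matrix of the tectorins and other glycoproteins. It moves against the hair bundles when sound arrives, and mutations of several of these genes cause deafness. Otoconia, the crystals of the vestibular organs, and the fibrocytes of the lateral wall have matrix proteins of their own.

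Recovered depth was 14563630 to 17402398 fragments per library. WT 3 and HET 1 stood apart from the other 4 libraries on the first principal component of the 15391 tested genes, which held 58.1% of the variance. In both libraries long genes read lower than in the others, as described with the values below. Markers of hair cells (summed 151 to 197 FPKM in WT and 164 to 193 in HET, 8 genes), supporting cells (1379 to 1504 and 1241 to 1603, 8 genes) and otic fibrocytes and mesenchyme (305 to 397 and 302 to 339, 7 genes) were present in all 6 libraries. Cib2 (52.1 to 68.7 FPKM) and Pvalb (26.75 to 53.5 FPKM) made up most of the hair cell sum. Epyc (606 to 813 FPKM) and S100a1 (300 to 428 FPKM) made up most of the supporting cell sum. Ocm, of the hair cell list, was at 13.95 to 15.15 FPKM in WT and 18.9 to 21.2 in HET. It was not called (adjusted p = 0.9998 in limma), and 5.94% of all tested genes likewise did not overlap between the groups. In the fibrocyte and mesenchyme list, Tbx15 (0.10 to 0.45 FPKM) and Fgf7 (0.46 to 0.76 FPKM) stayed under 1 FPKM in every library. The stria vascularis list, of 8 genes, summed to 92.7 FPKM in WT 1 and 60.6 to 67.45 in the other libraries. Dct was at 15.1 FPKM in WT 1 and 0.32 to 2.70 elsewhere, and Kcne1 at 5.39 and 0.54 to 1.07. Bsnd was at 1.71 and 0 to 0.12, whereas Tyrp1 was at 0.02 in WT 1. WT 1 also held the highest fibrocyte and mesenchyme sum (397 FPKM). Whether tissue content differed between libraries was not tested. The vestibular list summed to 5.79 to 8.45 FPKM in WT and 4.05 to 6.21 in HET over 5 genes, nearly all of it from Zpld1. Its other members were at or near the bottom: Bricd5 was listed at 0 in every library, and Otop1, Tnn and Nox3 did not exceed 0.05, 0.05 and 0.39 FPKM.

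The 10 genes spanned nearly the whole range of expression in the cochlea. Tectb, Oc90 and Tecta were among the most abundant transcripts, at ranks 6 to 12, 7 to 14 and 13 to 23 among all listed genes of a library. Otoa, Otog and Otogl lay well below them, at 116, 92.8 and 61.1 FPKM on average. Otos and Coch followed at 40.6 and 31.8 FPKM, Otol1 at 12.9 FPKM, and Ceacam16 was close to absent at 0.272 FPKM. Together the 10 genes took 1.55% to 1.96% of all recovered fragments. Of neighbours in this order, Tectb exceeded Oc90 in 4 of 6 libraries and the pair could not be ranked. Otos exceeded Coch in all 6 libraries, at Coch to Otos ratios of 0.645 to 0.937.

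**Figure D1:**
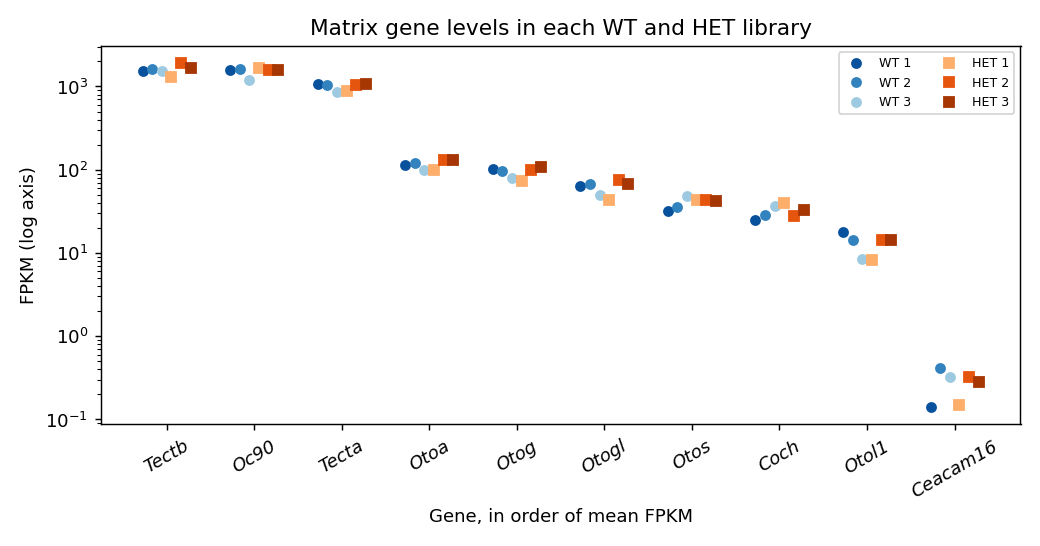
FPKM of each gene in each library on a log axis, with WT libraries as circles and HET libraries as squares; no error bars are drawn, since every library is shown. Tectb, Oc90 and Tecta lie near or above 1000 FPKM and Ceacam16 below 1 FPKM, and the WT and HET symbols overlap in each gene.

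Upstream sequences are shown for 4 members: Tecta and Tectb, the 2 abundant tectorin genes, and Otol1 and Coch, whose levels moved in opposite directions over the libraries, as described below with their values. Each line gives the 250 bases before the RefSeq start in GRCm38.p6, read on the gene's strand, for Tecta at the start nearest to that of GENCODE. Capitals mark each match to the E-box CANNTG, the SOX site CATTGT, the GATA site AGATAA, the TATA box TATAAA or the POU4 sites CTCATTAA and ATAATTAAT on either strand. The regions are chr9:42399948-42400197 (-), chr19:55180476-55180725 (+), chr3:70007363-70007612 (+) and chr12:51593091-51593340 (+).
Tecta: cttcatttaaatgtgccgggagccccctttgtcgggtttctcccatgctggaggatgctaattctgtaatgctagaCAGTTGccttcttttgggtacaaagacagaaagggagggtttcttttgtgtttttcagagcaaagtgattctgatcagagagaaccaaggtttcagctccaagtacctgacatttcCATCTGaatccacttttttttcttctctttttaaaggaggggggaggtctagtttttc
Tectb: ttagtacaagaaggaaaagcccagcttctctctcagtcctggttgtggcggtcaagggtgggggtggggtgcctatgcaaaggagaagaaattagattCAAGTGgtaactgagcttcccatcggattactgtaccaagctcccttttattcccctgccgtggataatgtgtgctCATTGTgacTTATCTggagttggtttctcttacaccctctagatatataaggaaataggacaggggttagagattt
Otol1: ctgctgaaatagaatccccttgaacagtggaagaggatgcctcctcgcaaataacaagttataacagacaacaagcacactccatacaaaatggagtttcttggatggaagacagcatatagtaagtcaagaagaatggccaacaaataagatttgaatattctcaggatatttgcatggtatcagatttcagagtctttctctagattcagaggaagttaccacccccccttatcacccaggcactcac
Coch: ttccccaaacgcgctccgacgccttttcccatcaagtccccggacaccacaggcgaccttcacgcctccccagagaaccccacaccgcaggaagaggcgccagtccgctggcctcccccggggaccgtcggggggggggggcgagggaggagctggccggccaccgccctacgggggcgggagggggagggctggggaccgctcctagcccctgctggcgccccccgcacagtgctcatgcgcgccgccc

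Tecta had 2 E-boxes, a motif held by 66.2% of 32536 promoters of the same length. Tectb had 1 E-box, 1 SOX site (10.5% of promoters) and, 3 bases further on, 1 GATA site on the other strand (9.97%). The windows of Otol1 and Coch held no match to any of the 6 motifs, and neither POU4 site (0.814% and 0.258% of promoters) was in any of the 4. The windows differed in composition: GC content was 43.2% for Tecta, 46.0% for Tectb, 41.2% for Otol1 and 74.8% for Coch, against a median of 52.4%. Coch had 24 CpG dinucleotides and Otol1 had 1. Promoter entries were matched for 7 of the 10 members, not for Otogl, Ceacam16 and Oc90.

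Tecta encodes alpha-tectorin, the large zona pellucida domain protein on which the matrix of the tectorial membrane is organised. The gene (ENSMUSG00000037705) lies on chromosome 9 from 42329619 to 42399929 on the - strand of GRCm38, with 7411 bp of exon sequence in GENCODE M21. It read 1078, 1039 and 867 FPKM in WT 1 to 3 and 873, 1056 and 1072 FPKM in HET 1 to 3. WT 3 and HET 1 were the low libraries, and the groups covered nearly the same range. The means were 995 ± 112 FPKM in WT and 1000.2 ± 110.1 in HET (SD, n = 3 each), and the change on the log2(FPKM + 1) scale was 0.01 (95% interval -0.36 to 0.38). Without HET 1 and WT 3 it was also 0.01.

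Tectb encodes beta-tectorin, the shorter zona pellucida partner of alpha-tectorin. The gene (ENSMUSG00000024979, chromosome 19, 55180733 to 55196313, + strand, 3820 bp of exons) read 1522, 1619 and 1526 FPKM in WT and 1288, 1907 and 1668 FPKM in HET. HET held both the lowest and the highest library, HET 1 and HET 2. The change was 0.04 (-0.40 to 0.48), and 0.18 without HET 1 and WT 3, where both remaining HET libraries exceeded both WT libraries. The groups did not overlap in 50.7% of all genes in that comparison. The ratio of Tectb to Tecta was 1.58 ± 0.175 in WT and 1.61 ± 0.173 in HET (SD, n = 3 each), above 1 in 6 of 6 libraries.

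Ceacam16, a secreted adhesion protein that contributes to the striated sheets of the membrane, was the exception among the tectorial membrane genes. The gene (ENSMUSG00000014686, chromosome 7, 19852097 to 19861299, - strand, 1635 bp of exons) read 0.14, 0.42 and 0.32 FPKM in WT and 0.15, 0.32 and 0.28 FPKM in HET. This amounts to 22 recovered fragments over the WT libraries (95% Poisson interval 13.8 to 33.3) and 20 over the HET libraries (12.2 to 30.9). It did not reach 1 FPKM in any library and was not tested in the main comparison. A gene on the other strand, Gm19345, overlaps it at 0.13 to 0.87 FPKM, and the sources do not state whether strand was used in counting.

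Otog and Otogl encode otogelin and its relative otogelin-like, large mucin-like glycoproteins of the acellular membranes of the inner ear. Otog (ENSMUSG00000009487, chromosome 7, 46240987 to 46311434, + strand, 10349 bp of exons) read 102, 95.4 and 78.6 FPKM in WT and 73.2, 100.5 and 107 FPKM in HET. Otogl (ENSMUSG00000091455, chromosome 10, 107760531 to 107912134, - strand, 8763 bp of exons) read 64.5, 66.6 and 49.1 FPKM in WT and 43.7, 75.4 and 67.4 FPKM in HET. In both genes WT 3 and HET 1 were the lowest libraries and the groups overlapped. The changes were 0.02 for Otog (-0.40 to 0.43) and 0.02 for Otogl (-0.51 to 0.56), and 0.07 and 0.12 without HET 1 and WT 3. Otog exceeded Otogl in all 6 libraries, at ratios of 1.33 to 1.67.

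Otoa encodes otoancorin, which anchors the tectorial membrane to the spiral limbus. The gene (ENSMUSG00000034990, chromosome 7, 121081650 to 121163097, + strand, 8439 bp of exons) read 114, 122 and 98.3 FPKM in WT and 99.6, 132 and 129.9 FPKM in HET. WT 3 and HET 1 again lay together below the rest. The change was 0.11 (-0.24 to 0.45) with all libraries. Without HET 1 and WT 3 it was 0.15 (0.02 to 0.28), with unadjusted p = 0.0299 and adjusted p = 0.269 in limma. In that comparison 15.9% of all genes had an unadjusted p under 0.05.

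Oc90 and Otol1 encode the otoconial proteins otoconin, the main protein of otoconia, and otolin, a collagen-like scaffold protein. Oc90 (ENSMUSG00000015001, chromosome 15, 65876053 to 65912397, - strand, 1912 bp of exons) read 1579, 1601 and 1193 FPKM in WT and 1654, 1577 and 1599 FPKM in HET. WT 3 alone was low, and the other 5 libraries lay within 1577 to 1654 FPKM. The change of 0.16 (-0.24 to 0.56) rested on WT 3: it was 0.02 without that library and -0.0018 without HET 1 and WT 3. Otol1 (ENSMUSG00000027788, chromosome 3, 70007613 to 70028708, + strand, 2161 bp of exons) read 17.97, 14.3 and 8.38 FPKM in WT and 8.28, 14.5 and 14.1 FPKM in HET. WT 3 and HET 1 were the low libraries here, at 46.6% and 46.1% of WT 1, the highest. Otol1 had the widest interval of the tested members, with a change of -0.11 (-0.84 to 0.63). Oc90 exceeded Otol1 by 87.9 to 199.8 times in a library. Of the 5 vestibular markers, Otop1, Nox3, Tnn and Bricd5 were at or near 0, whereas Zpld1 was at 5.38, 6.08 and 8.41 FPKM in WT and 3.91, 5.01 and 6.01 FPKM in HET. The markers of the otic roof and Reissner's membrane ranged widely. Vmo1 was at 162 to 226 FPKM, Otx2 at 5.90 to 9.02, Fgf9 at 2.95 to 4.50 and Meis2 at 0.39 to 0.61. Which cells carried Oc90 and Otol1 RNA, those of vestibular tissue included, was not tested.

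Coch and Otos encode cochlin and otospiralin, products of the fibrocytes of the spiral ligament and limbus. Coch (ENSMUSG00000020953, chromosome 12, 51593341 to 51605771, + strand, 2998 bp of exons) read 24.7, 28.5 and 36.5 FPKM in WT and 40.04, 27.8 and 33.1 FPKM in HET. WT 3 and HET 1 were the 2 highest libraries, the reverse of their place in Tecta. Otos (ENSMUSG00000044055, chromosome 1, 92644218 to 92648841, - strand, 3082 bp of exons) read 31.9, 35.3 and 48.7 FPKM in WT and 42.8, 43.1 and 42.2 FPKM in HET. The HET libraries lay close together, at 42.7 ± 0.452 FPKM, inside the wider WT range of 38.6 ± 8.89 (SD, n = 3 each). The changes were 0.17 for Coch (-0.26 to 0.60) and 0.16 for Otos (-0.20 to 0.53). Without HET 1 and WT 3 they were 0.19 for Coch and 0.34 for Otos (0.18 to 0.50). The Otos change had unadjusted p = 0.00258 and adjusted p = 0.182 in limma, where 15.9% of all genes had an unadjusted p under 0.05. That change rested on leaving out WT 3, the highest Otos library. The Otos estimate was 0.34 without WT 3 alone and 0.16 without HET 1 alone. In a bulk sample, a change in the number of cells of a type and a change in the RNA of each cell cannot be told apart.

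None of the 9 tested members passed limma's threshold in HET against WT (0 called, adjusted p = 0.9998 for each), and 0 of 9 had an unadjusted p under 0.05. Across the 15391 genes tested 0% were called, and 1.73% (266 genes) had an unadjusted p under 0.05. In no member (0 of 9) did the 3 WT libraries lie apart from the 3 HET libraries, which was so in 5.94% of all tested genes. The median change was 0.04 in the members, with 8 higher and 1 lower, and 0.001 in all genes, with 7757 higher and 7634 lower. Several members moved together over the libraries (r = 0.97 for Tecta and Otog), so their signs are not independent. The signs of Tecta, Tectb, Otog, Otogl and Otol1 turned when single libraries were left out (WT 3, HET 2 or HET 3 for Tecta, Otog and Otogl, HET 2 for Tectb, WT 1 or HET 1 for Otol1). The two-sided exact permutation p of the members' FPKM lay between 0.4 and 1, where 3 against 3 libraries allow no p under 0.1. These p-values measure the spread between the deposited libraries. The intervals bound the size of what could have been missed: for Tecta they run from 0.778 to 1.30 times WT, and for Otol1 from 0.557 to 1.55 times, on the FPKM + 1 scale.

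**Figure D2:**
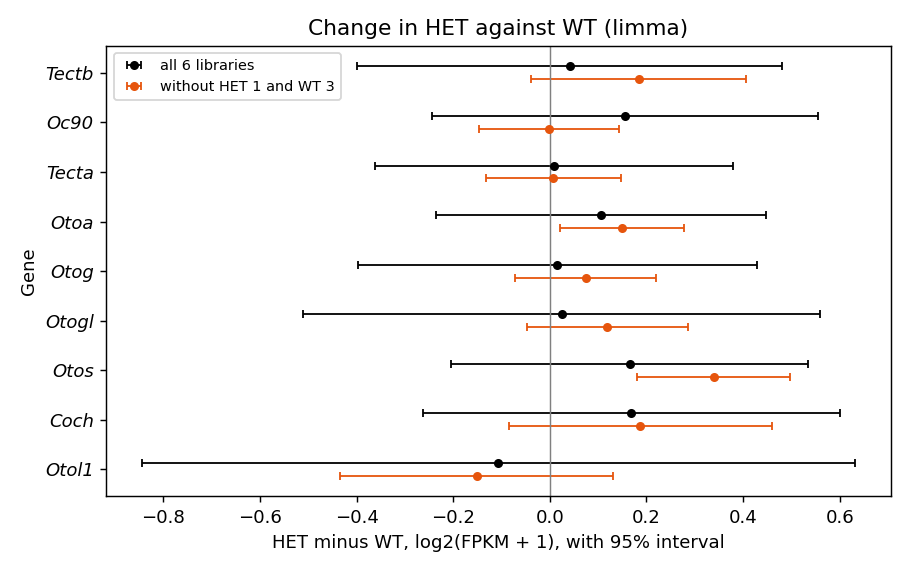
HET minus WT on the log2(FPKM + 1) scale for the 9 tested members; points are limma's estimates and bars their 95% intervals, in black for all 6 libraries and in orange without HET 1 and WT 3. Every black interval includes 0, and the orange intervals of Otos and Otoa lie above 0 before adjustment over all genes. Without HET 1 and WT 3, 15.9% of all genes had an unadjusted p under 0.05.

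With HET 1 and WT 3 left out, 0 of 9 members were called in 2 against 2 libraries, as were 0% of 14844 genes. An unadjusted p under 0.05 was seen in 2 of 9 members, Otoa and Otos, against 15.9% of all genes. The 2 WT and 2 HET libraries did not overlap in 4 of 9 members, against 50.7% of all genes. The first share lay near the background and the second did not exceed it.

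Libraries of the same group differed from each other in these genes. Relative to each gene's mean over the 6 libraries, WT 3 and HET 1 read -0.20 and -0.19 for Tecta, -0.22 and -0.32 for Otog, -0.29 and -0.45 for Otogl, -0.23 and -0.21 for Otoa, and -0.52 and -0.53 for Otol1 (log2(FPKM + 1)). Tectb was low in HET 1 (-0.29) but not in WT 3 (-0.05). Oc90 did the opposite, at -0.35 in WT 3 and 0.12 in HET 1. Coch was high in both (0.21 and 0.34), and Otos mainly in WT 3 (0.27, against 0.08 in HET 1).

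**Figure D3:**
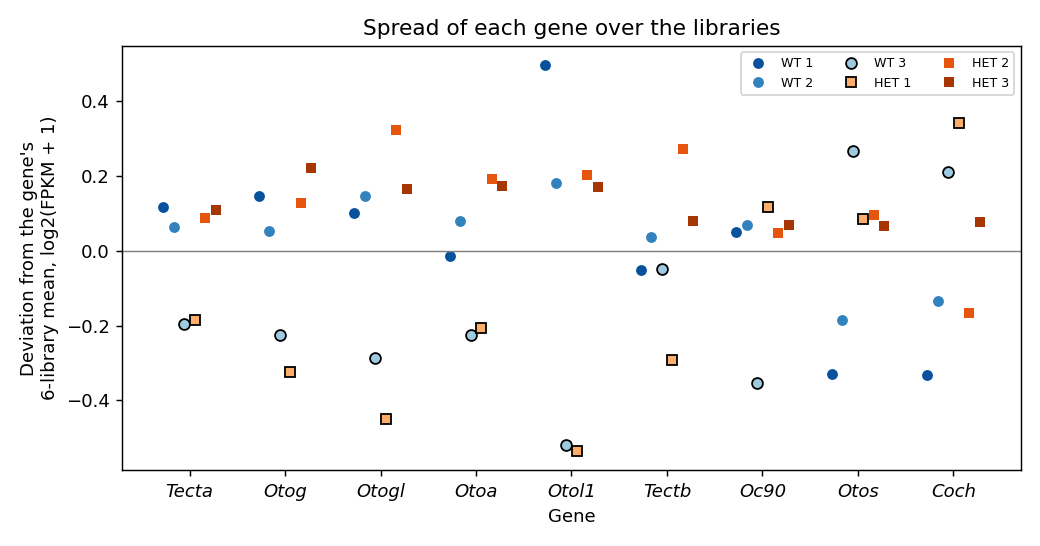
Deviation of each library from the gene's mean over 6 libraries, on the log2(FPKM + 1) scale, with WT libraries as circles and HET libraries as squares; WT 3 and HET 1 have black outlines. WT 3 and HET 1 are the 2 lowest libraries in Tecta, Otog, Otogl, Otoa and Otol1 and the 2 highest in Coch.

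Gene length moved with these libraries. Over 15357 tested genes with an exon length, the Spearman correlation of a library's deviation with exon length was -0.358 in WT 3 and -0.403 in HET 1, and 0.0869 to 0.328 in the other 4 (across genes, which are not independent). Genes over 8 kb had a median deviation of -0.12 in WT 3 and -0.17 in HET 1, and those of 2 to 4 kb had 0.10 and 0.10. Otog, Otogl and Otoa, at 10.3, 8.76 and 8.44 kb, were lower in these libraries as their length class was, though by more. Tecta, at 7.41 kb, read lower in both, where genes of 4 to 8 kb had medians of 0.005 and -0.03. Coch, at 3.00 kb, was higher, again as its class. Otol1, at 2.16 kb, went against its class: it read -0.52 in WT 3 and -0.53 in HET 1. Tectb, at 3.82 kb, also read below its class in both. Oc90, at 1.91 kb, was at -0.35 in WT 3, where genes of 1 to 2 kb had a median of 0.13, and at 0.12 in HET 1, where they had 0.19. Otos, at 3.08 kb, was higher in both (0.27 and 0.08), as its class was. Summed cell type markers also set WT 3 and HET 1 apart. Neuron markers were at 82.2 and 78.2 FPKM there against 35.3 to 62.35 in the other 4. Schwann and glia markers were at 374 and 404 against 199 to 319, and cell cycle markers at 16.8 and 17.8 against 9.78 to 12.8. Fibrocyte and mesenchyme markers were lowest there (305 and 302), and the stria vascularis and bone sums did not split this way. The parts of gene length and of tissue content in the members' values were not tested.

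**Figure D4:**
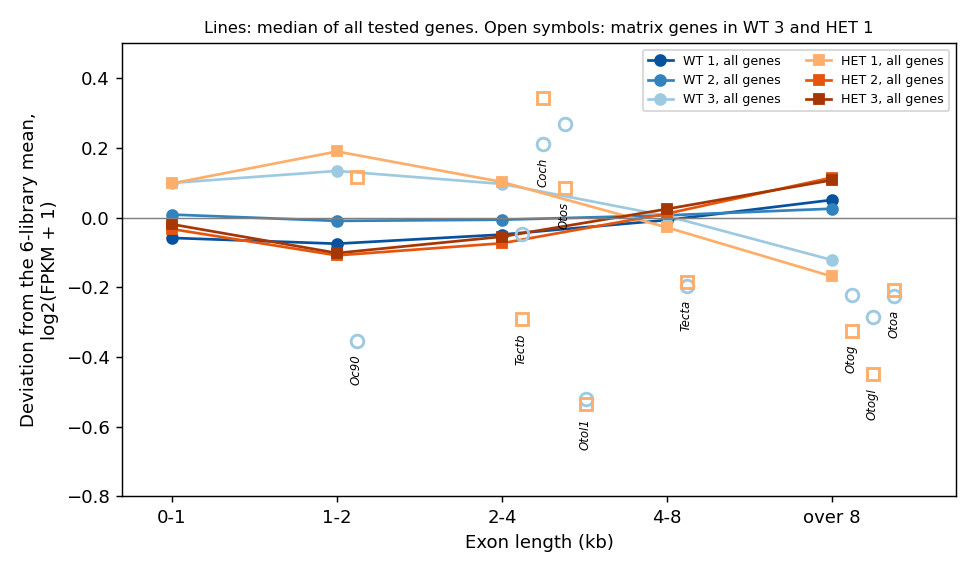
Lines give each library's median deviation from the 6-library mean, on the log2(FPKM + 1) scale, for all tested genes in 5 classes of exon length (kb); open circles and squares give the matrix genes in WT 3 and HET 1, set side by side within their class. The lines of WT 3 and HET 1 are highest at 1 to 2 kb (0.13 and 0.19) and lowest over 8 kb (-0.12 and -0.17), and Otol1 lies far below them.

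The genes whose pattern over the 6 libraries was most like a member's were found by Pearson r of log2(FPKM + 1). They were Prrc1 and Dynlt1b for Tecta (r = 0.998 and 0.998), Ddx21 and Epha5 for Tectb (0.997 and 0.995), Atf7 and Zfp870 for Otog (0.998 and 0.997), Parva and Ppm1h for Otogl (0.999 and 0.998), and Mme and Jmjd4 for Otoa (0.998 and 0.997). Nudt13 and Gtf2e2 were most like Coch (0.995 and 0.995), Tbp and Klhl9 most like Otos (0.994 and 0.987), Bbs9 and Bvht most like Oc90 (0.963 and 0.952), and Rnf145 and Cblb most like Otol1 (0.998 and 0.998). All points share the same 6 libraries. Pearson r takes no account of the size of a change. Dynlt1b read 0.09 and 0.16 FPKM in WT 3 and HET 1 and 5.45 to 7.71 FPKM in the others, whereas Tecta spanned 867 to 1078 FPKM. An r above 0.9 was reached with Tecta by 11.8% of tested genes, with Otogl by 13.5%, with Otol1 by 7.44%, with Otos by 1.01% and with Oc90 by 0.175%. Among members, r was 0.97 between Tecta and Otog, 0.97 between Tecta and Otol1, and -0.93 between Coch and Otol1.

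Genes that work beside the members were followed as 5 lists, and 0 genes passed limma's threshold in either direction in each of them. All 7 collagens of the tectorial membrane were tested, with a median change of -0.05, and 0 of 7 had an unadjusted p under 0.05. Col2a1, the major fibrillar collagen gene of the list, was the most abundant, at 1196 ± 46.7 FPKM in WT and 1156 ± 129 in HET (SD, n = 3 each). The estimates of the list ran from -0.14 for Col11a2 to -0.02 for Col9a1. Which cells carried the collagen RNA, those of cartilage included, was not tested. Of the 6 cartilage markers, Cnmd was at 583 to 704 FPKM, Matn1 at 56.7 to 77.1 and Snorc at 0.45 to 1.51. Acan, Matn3 and Col10a1 stayed under 1 FPKM. The list of otoconial, cupular and endolymph partners had 8 of 10 genes tested and a median of 0.01. It held the furthest estimates of the 5 lists, at 0.31 for Slc26a4, the pendrin anion exchanger gene, and -0.35 for Zpld1, a zona pellucida domain gene of the cupula. With single libraries left out they ran from 0.13 to 0.46 for Slc26a4 and from -0.47 to -0.18 for Zpld1. Without WT 3 they were 0.13 and -0.18, and Slc26a4 was at 0.18 without HET 3. Zpld1 was at -0.21 without HET 1, and at -0.05 without HET 1 and WT 3. Sparcl1, whose protein is found in otoconia, was its most abundant gene, at 667 ± 77.5 FPKM in WT and 587 ± 45.4 in HET.

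Of the genes of hair bundle attachment and apical partners, 5 of 6 were tested (median change 0.03). Emilin2, a basilar membrane glycoprotein gene and the most abundant of them, had an estimate of -0.03, and Cdh23, a tip link gene, one of 0.10. Both signs turned with single libraries left out, over -0.12 to 0.14 for Emilin2 (without WT 1, WT 2 or HET 1) and -0.035 to 0.29 for Cdh23 (without WT 3 or HET 3). The spiral limbus and greater epithelial ridge list had all 10 genes tested (median -0.04), from -0.12 for Lfng to 0.15 for Fst, the follistatin gene. Epyc, a small leucine-rich proteoglycan gene, was its most abundant member at 724 ± 55.5 FPKM in WT and 696 ± 106 in HET. The proteoglycan and basilar membrane list had 9 of 10 genes tested (median -0.02), from -0.14 for Fmod to 0.07 for Vcan, with Lum the most abundant at 274 ± 8.52 and 273 ± 17.3 FPKM.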

How the data were processed

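The authors deposited 1 table of FPKM values per library, rounded to 2 decimals, per the file headers. DESeq2 and, as the build, mm8 are named in the submitters' processing notes, with no aligner, counting tool or annotation among the sources used here. Of the 51912 gene identifiers, 51633 matched GENCODE M21 on GRCm38, the source of all coordinates and exon lengths given here. Depth was recovered as the number of fragments that made the low FPKM values of genes with up to 600 bp of exon whole multiples; within 0.1, 99.5% to 99.8% were whole, a check that is not independent of the fit. The recovered fragments summed to 107.97% to 108.21% of that depth, and the cause was not tested. Poisson intervals rest on these fragments and cover counting error only.

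HET was tested against WT on log2(FPKM + 1) values, using limma 3.58.1 (R 4.3.3) with a mean-variance trend. A gene was tested if 3 or more of the 6 libraries reached 1 FPKM. The count model of the plan was not used, since the values are FPKM. Adjusted p values are Benjamini-Hochberg over all 15391 genes tested, two-sided, with a threshold of 0.05. In data simulated from these libraries (200 changed of 15391 genes, 3 rounds, errors independent between genes), the fit recovered 33.2% of 1.5-fold, 72.1% of 2-fold and 88.3% of 4-fold changes for HET against WT, and 2.98% of its calls were false. The real libraries shared variation between genes, with 58.1% of the variance on the first principal component, so these rates may not hold for them. Fold changes understate changes of low genes. Alternatives were another pseudocount, no filter, 2 scalings, each library left out, HET 1 and WT 3 left out, a replicate block and no trend. The text names all 10 members, Pou4f3, the 2 tested genes most like each member without predicted genes, and of each list the most abundant gene and those with the highest and lowest change. The members and lists were chosen with earlier results of these data known. Promoter sequences are from RefSeq (GRCm38.p6). The tables of the homozygous libraries were used only to look for the members and to read Pou4f3.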

Additional observations from a re-analysis of the deposited data

How the results depend on the processing

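No member was called (0) under any of the 13 alternatives, limma being the only test across genes that was run. Over all genes the count called was 0 with pseudocount 0.1, without a filter, under both scalings, without a trend and with the replicate block, and lay between 0 and 1 with single libraries left out. The exceptions, in log2(FPKM + 1), were Rpl29 without WT 1 (5.33 higher in HET, adjusted p = 0.00271 in limma) and Xist without WT 2 (6.04 higher in HET, adjusted p = 0.0374). Rpl29 read 98.1, 2.01 and 2.05 FPKM in WT and 114.6, 102.5 and 149.8 FPKM in HET, so the left-out WT 1 lay near the HET libraries. Xist, the X-inactivation RNA of female cells, read 0.08, 78.2 and 0.06 FPKM in WT and 53.95, 107.9 and 56.9 FPKM in HET. No label names the animals' sex, and its part in the members' values was not tested. The count at an unadjusted p under 0.05, 266 with all libraries, was 1833 without HET 1 and 2356 without HET 1 and WT 3.

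The sign of several member estimates turned with a single library. With each library left out in turn, estimates ran from -0.088 to 0.10 for Tecta, -0.086 to 0.20 for Tectb, -0.092 to 0.18 for Otog, -0.13 to 0.26 for Otogl and -0.39 to 0.13 for Otol1. Otoa (0.02 to 0.24), Coch (0.04 to 0.32), Otos (0.04 to 0.34) and Oc90 (0.02 to 0.23) kept their sign. Tecta, Otog and Otogl turned without WT 3, HET 2 or HET 3, Tectb without HET 2, and Otol1 without WT 1 or HET 1. Without HET 1 and WT 3 together, Oc90 was at -0.0018 and Emilin2 at 0.05. The other genes that turned were Cdh23 (-0.035 to 0.29), Col2a1 (-0.11 to 0.042), Col9a1 (-0.068 to 0.031), Emilin2 (-0.12 to 0.14), Epyc (-0.18 to 0.030) and Lum (-0.054 to 0.038). In all, 104 of 117 member estimates under alternatives kept their sign, a share that overstates their stability. Estimates without a filter, with the replicate block and without a trend equal the main ones, so those signs could not turn. All 13 turned signs came from settings that left libraries out.

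The replicate block called 0 genes and 0 members, with 173 genes at an unadjusted p under 0.05. Deviations from the group means correlated at -0.519, 0.286 and -0.471 for libraries with the same number, 1 to 3, in their titles. WT 3 and HET 1 stood apart in their groups (r = 0.641 with each other) and largely set these values. The correlations therefore cannot decide whether the titles' numbers pair the libraries. The column of HET 3 is headed with the number 4, unlike its title. Depth limits Ceacam16, at 4 to 10 fragments per library, far more than the other members.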
